A study of Danio rerio with 9 samples.

Results

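The genes of respiratory complex I were followed in zebrafish gastrula embryos kept in pentachlorophenol, a chlorinated phenol used as a wood preservative and known to uncouple oxidative phosphorylation. A gene was taken as a member when a probe set of the array named it alone and its current or older symbol began with nduf. This gave 39 of the 8793 genes named on the array, read by 44 probe sets, and the probe set with the highest mean signal over the 9 arrays stood for its gene. In 38 of the 39 genes that probe set passed the signal filter, which left out the dimmest 40% of probe sets, and 6106 genes passed it in all. A probe set naming ndufa9a and ndufa9b together was left out. Other genes of the complex, among them ndufs3, ndufa7, ndufb3 and the subunits encoded in mitochondrial DNA, were not analysed here.

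The embryos were wild type, of the Tuebingen strain, were sampled whole at about 8 hours after fertilisation, and came from 3 groups of 3 arrays each: deionized water, 20 µg/L and 50 µg/L pentachlorophenol. Eggs were collected over 30 min at 25 °C, and embryos of the wanted stage were picked by hand under a microscope before RNA extraction. The labels call the 3 samples of a group biological replicates but do not say how many embryos or clutches each held, so that the p-values measure the spread between these samples, whatever its source. Biotin-labelled cRNA from each sample was hybridised to its own Affymetrix array, and values are array signals (intensities). The number of arrays limits the precision. Because a probe set's signal depends on its probes, changes are read between arrays and not between genes. Where genes are binned, summed or called bright or dim below, this refers to array signal and not to amounts of RNA.

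Complex I, NADH:ubiquinone oxidoreductase, is the entry point of electrons from NADH into the respiratory chain. Its matrix arm oxidises NADH with a flavin and passes electrons along iron-sulphur clusters to ubiquinone, while its membrane arm pumps protons across the inner mitochondrial membrane. Core subunits, conserved from bacteria, carry out catalysis, accessory subunits surround them, and assembly factors help to build the complex without staying in it. The cleavage-stage zebrafish embryo inherits its mitochondria, and its first supply of transcripts, from the egg. The roles given below are those of the mammalian counterparts.

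Some arrays stood apart from the rest. Over the probe sets above the filter, the median Spearman correlation of an array with the 8 others was 0.876 for 50 µg/L replicate 1 and 0.846 for water replicate 3, and between 0.905 and 0.921 for the other arrays. The array's 3′ control probe set for gapdhs, which encodes a glyceraldehyde-3-phosphate dehydrogenase, read 180.3, 95.7 and 59.5 in water, 147.1, 93.5 and 2549 at 20 µg/L and 7791, 4225 and 4278 at 50 µg/L. In that probe set 20 µg/L replicate 3 stood with the 50 µg/L arrays and away from its own group. The values of the replicate 3 arrays were also written with more decimal places than on the 6 remaining arrays, and each of these export formats holds all 3 groups. Results that rest on these arrays are given below with and without them.

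At 50 µg/L the transcripts of complex I subunits lay below those of water embryos as a group, and those of the assembly factors did not. The assembly factor genes were mostly dimmer than the subunit genes, and the part of signal in this difference was not tested. Of the 38 genes above the filter, 31 had a log2 change below 0 at 50 µg/L against water, where 44.6% of all genes did, 7 had one above 0, where 55.4% did, and the median log2 change was -0.52, against 0.09 over all genes. The genes that fell past an adjusted p of 0.05 (limma, Benjamini-Hochberg over the 9301 probe sets kept) were 4: ndufa2, ndufa12, ndufa5 and ndufs5. Among all genes 1.16% were called lower. None of the 38 was called higher, where 3.82% of all genes were. Of the 38, 17 had an unadjusted p under 0.05, as did 1525 of all 6106 genes. In 19 genes every 50 µg/L array lay below every water array, where 11.5% of all genes did so, and in 0 genes did every 50 µg/L array lie above every water array, where 18.3% of all genes did so. In RNA of whole embryos, fewer cells of a type and less RNA per cell cannot be told apart.

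**Figure D1:**
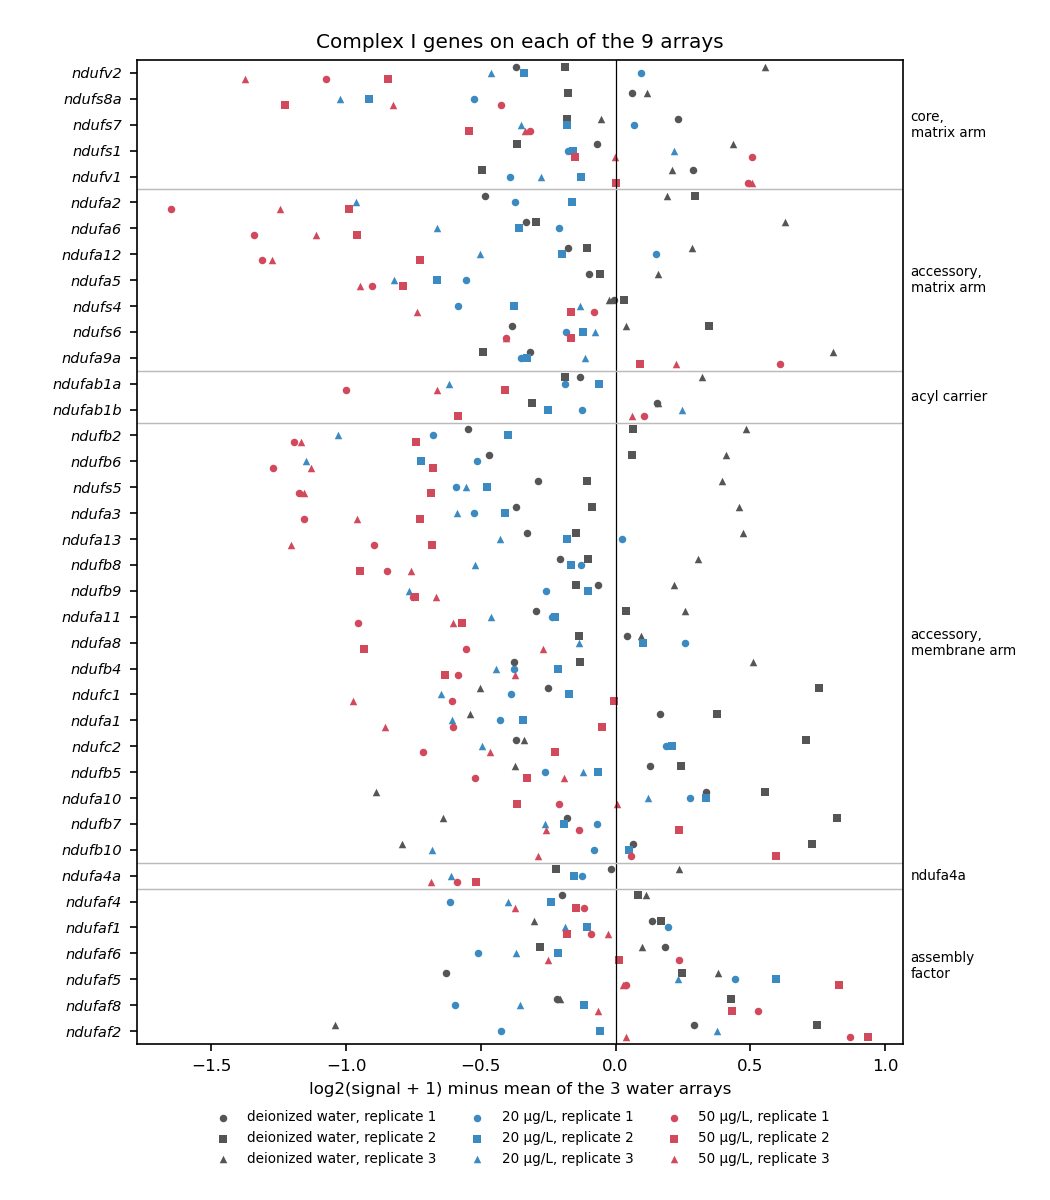
Each row is 1 complex I gene above the filter, grouped by role; points are the 9 arrays, placed by log2(signal + 1) minus the mean of the 3 water arrays (x axis, log2 units). The 50 µg/L points of most subunit genes lie left of the water points, while those of the 6 assembly factor genes mix with them.

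Array by array, the median of the 38 genes relative to their water mean was -0.18, -0.07 and 0.17 in water, -0.25, -0.18 and -0.45 at 20 µg/L and -0.57, -0.46 and -0.54 at 50 µg/L on the log2 scale. The 50 µg/L arrays therefore lay close together, the water arrays were spread out, and 20 µg/L replicate 3 lay nearer to the 50 µg/L arrays than to the rest of its group. On the same scale the mean of the array medians was -0.52 ± 0.05 at 50 µg/L and -0.03 ± 0.18 in water (SD, n = 3 each), and over all genes it was 0.10 ± 0.03 at 50 µg/L and 0.01 ± 0.01 in water. Water replicate 3 held the highest water value for 22 of the 38 genes, where it did so for 39.1% of all genes, and the lowest for 9. The 20 µg/L replicate 3 held the lowest value of its group for 26 of the 38 genes, where it did so for 32.4% of all genes. Without water replicate 3, 23 genes had all 50 µg/L arrays below all remaining water arrays (17.3% of all genes), and without 50 µg/L replicate 1 the number was 19 (13.7% of all genes).

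The accessory subunits of the matrix arm held 3 of the 4 calls. Among all genes 1.16% were called lower. Of these 7 genes, 6 had a log2 change below 0 at 50 µg/L (44.6% of all genes) and the median was -0.88. The largest decrease of any member was that of ndufa2, a small subunit with a thioredoxin-like fold in the module that oxidises NADH. Its signal was 1493, 2561 and 2388 in water, 1612, 1867 and 1071 at 20 µg/L and 666, 1052 and 880 at 50 µg/L. All 50 µg/L arrays lay below all water arrays, and the log2 change was -1.30 ± 0.31 (SE; limma adjusted p = 0.0397), which is 0.407 times the water level. The second, ndufa12, sits in the same module and takes the place that ndufaf2, a related assembly factor, holds earlier in assembly. It read 1068, 1122 and 1470 in water, 1341, 1051 and 851 at 20 µg/L and 486, 730 and 499 at 50 µg/L. The 20 µg/L arrays overlapped the water arrays, and all 50 µg/L arrays lay below both groups. The log2 change at 50 µg/L against water was -1.10 ± 0.28 (SE; limma adjusted p = 0.0459).

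The third, ndufa5, belongs to the part of the matrix arm that passes electrons to ubiquinone. It read 2051, 2113 and 2449 in water, 1494, 1388 and 1242 at 20 µg/L and 1175, 1272 and 1137 at 50 µg/L. Its arrays spread little within each group, and all arrays of both exposed groups lay below all water arrays. The log2 change was -0.88 ± 0.22 (SE; limma adjusted p = 0.0461) at 50 µg/L against water and -0.68 (limma adjusted p = 0.611) at 20 µg/L against water. The signal of ndufa6, a subunit of the LYR family that holds an acyl carrier protein at the matrix arm, was 1351, 1387 and 2636 in water, 1472, 1328 and 1076 at 20 µg/L and 672, 875 and 788 at 50 µg/L. Here too the 50 µg/L arrays lay below all others, and the log2 change, -1.14 ± 0.30 (SE), missed the threshold (limma adjusted p = 0.0513). The highest water value of ndufa6 was that of water replicate 3.

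The other accessory subunits of the matrix arm lay closer to the water level. For ndufs4 and ndufs6, subunits whose loss in humans causes complex I deficiency, the log2 change at 50 µg/L was -0.33 in both (limma adjusted p = 0.465 and 0.424). The gene ndufa9a, whose product binds a nicotinamide nucleotide near the ubiquinone site, went the other way in sign. It read 1267, 1123 and 2766 in water, 1238, 1256 and 1459 at 20 µg/L and 2408, 1682 and 1846 at 50 µg/L. The single high water value, from replicate 3, lay above every exposed array, and the log2 change at 50 µg/L against water was 0.31 ± 0.33 (SE; limma adjusted p = 0.594).

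Among the 17 accessory subunits of the membrane arm, 16 had a log2 change below 0 at 50 µg/L (44.6% of all genes), with a median of -0.59. In 9 of the 17 all 50 µg/L arrays lay below all water arrays (11.5% of all genes). One passed the test, with the third largest decrease of the 17: ndufs5, a subunit on the outer face of the membrane arm, towards the intermembrane space. It read 2414, 2734 and 3871 in water, 1952, 2115 and 2005 at 20 µg/L and 1305, 1832 and 1322 at 50 µg/L. The 3 groups did not overlap and lay in the order of dose. The log2 change was -1.0 ± 0.26 (SE; limma adjusted p = 0.0459) at 50 µg/L against water and -0.54 (limma adjusted p = 0.629) at 20 µg/L against water. The decreases of ndufb2 and ndufb6, a pair of small membrane subunits, were slightly larger in size but did not pass the test. The signal of ndufb2 was 1469, 2243 and 3005 in water, 1343, 1627 and 1052 at 20 µg/L and 937, 1284 and 956 at 50 µg/L, and at 50 µg/L against water its log2 change was -1.03 ± 0.30 (SE; limma adjusted p = 0.0697). The log2 change of ndufb6 was -1.03 ± 0.30 (SE; limma adjusted p = 0.0645), and a second probe set for it was too dim on all 9 arrays to be tested.

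Another 6 membrane arm genes had non-overlapping groups at 50 µg/L without passing the test: ndufa3 with a log2 change of -0.95, ndufa13 with -0.93, ndufb8 with -0.85, ndufb9 with -0.72, ndufa11 with -0.71 and ndufa8 with -0.59 (limma adjusted p between 0.0606 and 0.173). The product of ndufa13 is also known in mammals as GRIM-19, a factor linked to cell death, and that of ndufb9 is a second LYR protein that binds an acyl carrier protein. The remaining 8 overlapped between groups: ndufb4 and ndufc1 with -0.53, ndufa1 with -0.50, ndufc2 with -0.47, ndufb5 with -0.35, ndufa10 with -0.19, ndufb7 with -0.05 and ndufb10 with 0.12. Water replicate 3 was the lowest water array for ndufa1, ndufa10, ndufb5, ndufb7, ndufb10 and ndufc1, unlike its place in most of the other members. In ndufa10 it read 882, against 2065 and 2399 in the other water arrays.

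The core subunits of the matrix arm were uneven. The array held 5 of them above the filter, and 3 had a log2 change below 0 at 50 µg/L (44.6% of all genes). The median was -0.40 and none passed the test (1.16% of all genes were called lower and 3.82% higher). The iron-sulphur subunit ndufv2, partner of ndufv1 at the NADH site, read 1420, 1611 and 2697 in water, 1960, 1451 and 1331 at 20 µg/L and 872, 1021 and 707 at 50 µg/L. All 50 µg/L arrays lay below all others (log2 change -1.10 ± 0.30, SE; limma adjusted p = 0.0571). A second probe set for ndufv2 gave -0.28 (limma adjusted p = 0.548) with overlapping groups, so that the probe sets of this gene differ in size. The gene ndufs8a encodes an iron-sulphur subunit on the path to ubiquinone. It read 1128, 956 and 1174 in water, 752, 573 and 532 at 20 µg/L and 806, 462 and 609 at 50 µg/L. Both exposed groups lay below all water arrays and about equally far, with log2 changes against water of -0.83 at 50 µg/L (limma adjusted p = 0.0953) and -0.82 at 20 µg/L (limma adjusted p = 0.611).

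The subunit that carries the last iron-sulphur cluster before ubiquinone is encoded by ndufs7. It read 2226, 1674 and 1826 in water, 1988, 1674 and 1486 at 20 µg/L and 1518, 1299 and 1499 at 50 µg/L, a log2 change of -0.40 (limma adjusted p = 0.318) at 50 µg/L against water. All 50 µg/L arrays were below all water arrays, but the distance was small. The other core genes had values above 0. The signal of ndufs1, the large iron-sulphur subunit of the NADH module, was 852, 692 and 1207 in water, 789, 800 and 1039 at 20 µg/L and 1268, 805 and 891 at 50 µg/L. Its groups overlapped throughout, and the log2 change at 50 µg/L against water was 0.12 ± 0.29 (SE; limma adjusted p = 0.829). The gene ndufv1, whose product binds flavin and NADH, read 751, 436 and 712 in water, 468, 564 and 508 at 20 µg/L and 866, 616 and 874 at 50 µg/L. Its groups overlapped at 50 µg/L against water (log2 change 0.33 ± 0.29, SE; limma adjusted p = 0.498).

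**Figure D2:**
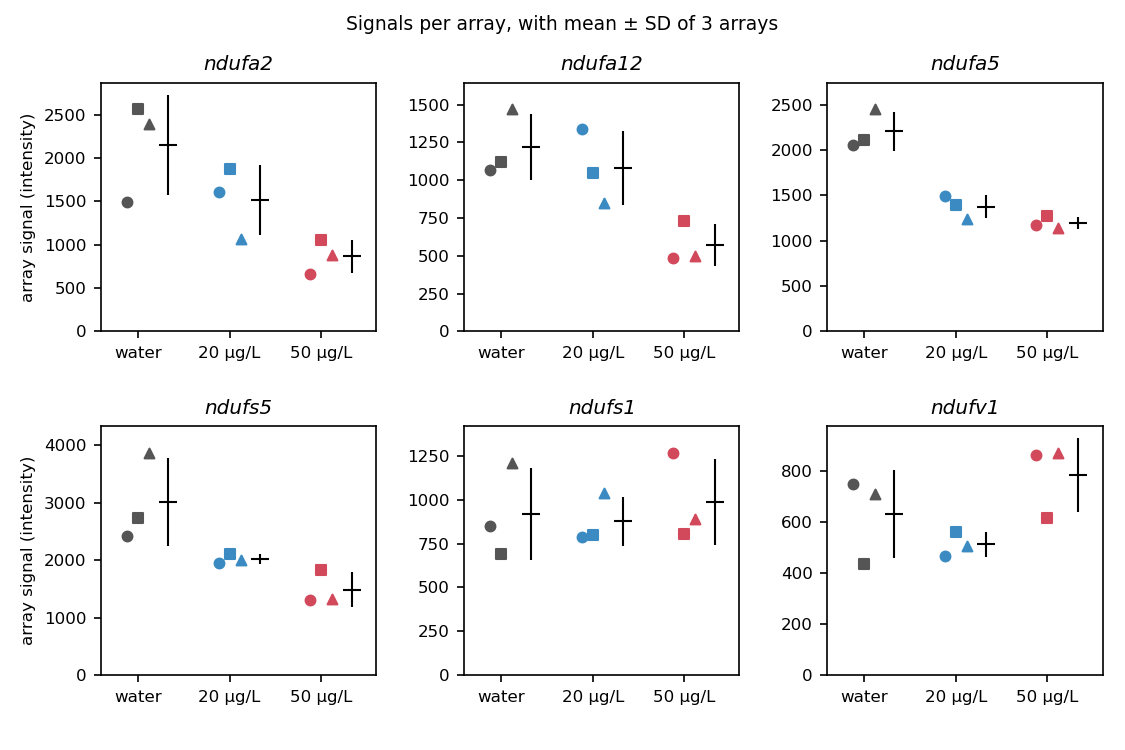
Array signal (y axis, intensity, from 0) by group for the 4 called genes and for the core subunits ndufs1 and ndufv1; points are arrays (circle, square and triangle for replicates 1, 2 and 3) and the black mark is the mean ± SD of 3 arrays. The 50 µg/L arrays of ndufa2, ndufa12, ndufa5 and ndufs5 lie below all water arrays, whereas those of ndufs1 and ndufv1 overlap them.

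The mitochondrial acyl carrier protein is an accessory subunit that also serves fatty acid synthesis, and zebrafish carry a pair of genes for it. The log2 change of ndufab1a at 50 µg/L was -0.69 (limma adjusted p = 0.132), and its other probe sets gave -0.78 and -0.75. The log2 change of ndufab1b was -0.14 (limma adjusted p = 0.786). The product of the NDUFA4 gene, first described as a complex I subunit, has since been assigned to complex IV in mammals. Its zebrafish counterpart ndufa4a read 10253, 8901 and 12206 in water, 9497, 9312 and 6786 at 20 µg/L and 6892, 7247 and 6454 at 50 µg/L. All 50 µg/L arrays lay below all water arrays (log2 change -0.60 ± 0.21, SE; limma adjusted p = 0.109). The paralogue ndufa4b was not above the level of the array's tag controls on any of the 9 arrays and was not tested; it read 7.8, 4.9 and 9.66 in water, 7.4, 4.1 and 6.36 at 20 µg/L and 41.6, 47.1 and 5.82 at 50 µg/L.

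None of the 6 assembly factor genes passed the test at 50 µg/L, where 1.16% of all genes were called lower and 3.82% higher. A log2 change above 0 was seen in 3 (55.4% of all genes), and the median was 0.15. In none of them did the 50 µg/L and water arrays separate, where 11.5% of all genes did so downwards and 18.3% upwards. The signal of ndufaf2, the forerunner of ndufa12 in assembly, was 297, 409 and 118 in water, 181, 233 and 315 at 20 µg/L and 444, 466 and 249 at 50 µg/L. Its log2 change, 0.61 ± 0.44 (SE), was not called (limma adjusted p = 0.409) but was the highest among the members, and water replicate 3 was its lowest array. There its signal lay close to the level of that array's tag controls, 113.8, which was 50.6 and 54.5 on water replicates 1 and 2. Without water replicate 3 and 50 µg/L replicate 1 together the log2 change of ndufaf2 was -0.033, a change of sign. The gene ndufaf5 encodes an enzyme that hydroxylates ndufs7, and ndufaf8 encodes its partner. The signal of ndufaf5 was 85.7, 158 and 173 in water, 181, 202 and 156 at 20 µg/L and 136, 237 and 135 at 50 µg/L, a log2 change of 0.30 (limma adjusted p = 0.65). That of ndufaf8 was 128, 201 and 129 in water, 98.3, 138 and 117 at 20 µg/L and 216, 202 and 143 at 50 µg/L, also a log2 change of 0.30 (limma adjusted p = 0.612). Both are dim genes whose 50 µg/L and water arrays overlap.

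The other assembly factors lay near the water level at 50 µg/L. The gene ndufaf4 acts on the ubiquinone-binding part of the matrix arm. It read 452, 550 and 561 in water, 338, 439 and 393 at 20 µg/L and 478, 469 and 400 at 50 µg/L, with log2 changes against water of -0.21 at 50 µg/L (limma adjusted p = 0.626) and -0.42 at 20 µg/L (limma adjusted p = 0.666). Only its 20 µg/L arrays lay wholly below the water arrays. The product of ndufaf1 helps to build the membrane arm. Its signal was 573, 587 and 423 in water, 598, 485 and 458 at 20 µg/L and 490, 461 and 511 at 50 µg/L, a log2 change of -0.10 (limma adjusted p = 0.833). A second, dimmer probe set for ndufaf1 gave 0.22 (limma adjusted p = 0.752), the opposite sign. The gene ndufaf6 acts early in membrane arm assembly. It read 318, 230 and 299 in water, 196, 241 and 216 at 20 µg/L and 329, 282 and 235 at 50 µg/L, and its fitted level at 50 µg/L was 0.999 times the water level (limma adjusted p = 0.999).

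**Figure D3:**
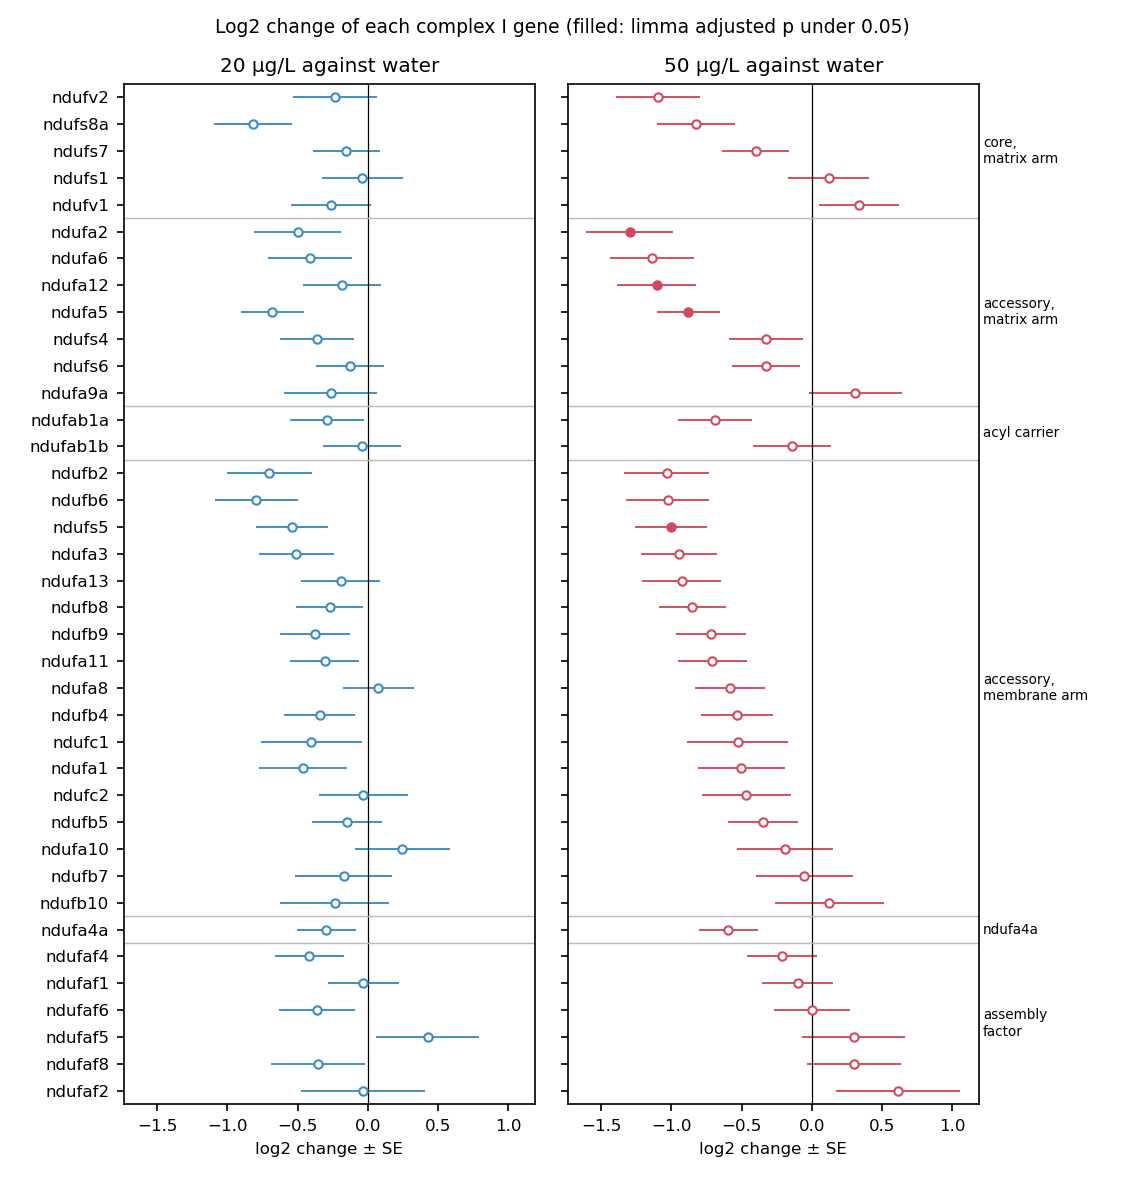
Log2 change ± SE (x axis) of each complex I gene above the filter against water, at 20 µg/L (left) and 50 µg/L (right), grouped by role; filled circles passed an adjusted p of 0.05. Filled circles are ndufa2, ndufa12, ndufa5 and ndufs5 at 50 µg/L, and no gene is filled at 20 µg/L.

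At 20 µg/L no complex I gene was called against water by limma, in either direction, and neither was any other gene (0% of all genes). Of the 38, 4 had an unadjusted p under 0.05, as did 443 of all 6106 genes. The smallest adjusted p was 0.611. The values still lay mostly below 0: 35 of 38 genes had a log2 change below 0, where 54.8% of all genes did, and 3 above 0, where 45.2% did, with a median of -0.28 against -0.05 over all genes. In 7 genes, ndufa5, ndufs4, ndufa3, ndufb6, ndufs5, ndufs8a and ndufaf4, every 20 µg/L array lay below every water array, where 7.04% of all genes did so, and in 0 genes above, where 5.34% of all genes did so. Without water replicate 3 the number below was 11 (14.1% of all genes), and without 20 µg/L replicate 3 it was 7 (15.2% of all genes). The 5 core subunits had a median of -0.23, the 7 accessory subunits of the matrix arm -0.36, the 17 of the membrane arm -0.31 and the 6 assembly factors -0.20. The median over the 38 genes was -0.21 without 20 µg/L replicate 3 and -0.20 without water replicate 3, against -0.07 and -0.05 over all genes. It was -0.19 with weights for array quality, and within the 6 arrays of the common export format it was -0.14, against -0.08 over all genes. Array by array, the median of the 38 minus that of all genes was -0.19, -0.10 and -0.49 at 20 µg/L and -0.19, -0.08 and 0.16 in water. Replicates 1 and 2 of these groups thus lay close together, and the replicate 3 arrays lay apart.

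Between the exposed groups no complex I gene was called by limma either, while 0.0491% of all genes were called lower and 1.67% higher at 50 than at 20 µg/L. The smallest adjusted p was 0.125, for ndufa12 (log2 change -0.92). Of the 38, 7 had an unadjusted p under 0.05, as did 1237 of all 6106 genes. The log2 change at 50 against 20 µg/L was below 0 for 28 of the 38, where 41.8% of all genes were, and above 0 for 10, where 58.2% were, with a median of -0.20 against 0.11 over all genes. Every 50 µg/L array lay below every 20 µg/L array for 11 genes (10.8% of all genes), among them ndufa2, ndufa12, ndufa6, ndufv2 and ndufs5. Every 50 µg/L array lay above every 20 µg/L array for 3 genes, ndufa9a, ndufv1 and ndufaf8 (20.5% of all genes). Without 20 µg/L replicate 3, 18 genes had their 50 µg/L arrays wholly below (19.2% of all genes). The comparisons share arrays: water serves both doses, and the 50 µg/L arrays enter the last one as well.

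Signal strength moved with the change at 50 µg/L across all genes, and the members are bright. With all genes divided into 4 bins of equal size by mean signal, the median log2 change at 50 µg/L against water was 0.27 in the dimmest, then 0.23 and 0.10, and -0.18 in the brightest. In the brightest bin 3.01% of all genes were called lower and 64.5% had a log2 change below 0. In 24% of them every 50 µg/L array lay below every water array. That bin held 20 of the 38 members, with a median of -0.64, 3 calls lower, and 19 with a log2 change below 0. In 13 of the 20 every 50 µg/L array lay below every water array. The next bin held 12 members, with a median of -0.43, 1 call lower (1.11% of all genes in that bin) and 9 with a log2 change below 0 (43.8% of all genes in that bin). The assembly factors had 2 genes in the dimmest bin, 3 in the second, 1 in the third and 0 in the brightest, so that their difference from the subunits goes with a difference in signal, whose part in the result was not tested. Of the 6 assembly factors 3 had a log2 change below 0, where 34.6% of all genes did in the dimmest bin and 35.7% in the second.

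**Figure D4:**
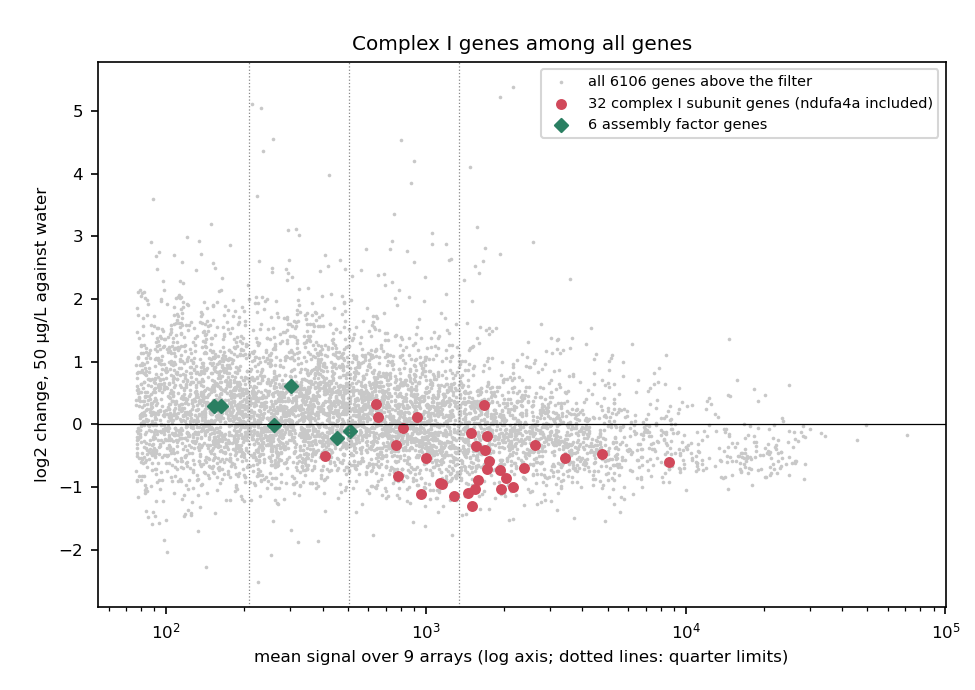
Log2 change at 50 µg/L against water (y axis) by mean signal over 9 arrays (x axis, log scale) for all 6106 genes above the filter (grey), complex I subunit genes with ndufa4a included (red circles) and the 6 assembly factor genes (green diamonds). Dotted lines divide all genes into 4 bins of signal. Most subunits lie in the bright bins, where the grey points also run lower, and the assembly factors lie in the dimmer ones.

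Genes of the other respiratory complexes give a setting for these values. The lists hold assembly genes beside subunits, and that of complex IV also holds cycsb, a cytochrome c gene. Among all genes 1.16% were called lower and 3.82% higher at 50 µg/L against water. At 50 µg/L against water the median log2 change was -0.50 over 11 complex III genes, -0.91 over 18 complex IV genes and -0.71 over 19 ATP synthase genes. It was 0.16 over 6 complex II genes, of which none passed the test. Of the complex III genes 1 fell, uqcrh, its hinge subunit (log2 change -1.18, limma adjusted p = 0.0161), and none rose. Of the complex IV genes 4 fell, among them the assembly gene cox10, and 1 rose. The gene that rose, cox6b1, encodes a subunit facing the intermembrane space. Its probe set was not above the tag controls on any water array. Its signal at 50 µg/L was at least 3.21-fold higher than the water arrays allow (limma adjusted p = 0.0313). It read 47.3, 45 and 91.2 in water, 56.3, 76.2 and 94.3 at 20 µg/L and 288, 218 and 170 at 50 µg/L. The probe set of cox6b1 passed the signal filter only through its 50 µg/L arrays, so its call is not independent of its rise. The largest decrease called was that of cox8a, with -1.24 (limma adjusted p = 0.0416). Of the ATP synthase genes 6 fell and none rose, the largest changes being those of atp5md with -1.52 (limma adjusted p = 0.0286) and of atp5mc1, which encodes a subunit of the membrane ring, with -1.40 (limma adjusted p = 0.0252). A list of 5 genes without an nduf symbol, for complex I assembly or for joining respiratory complexes, had a median of -0.16. The 1 that fell was cox7a2l, whose mammalian counterpart joins respiratory complexes together (log2 change -1.50, limma adjusted p = 0.0249). The other 4 did not pass the test. Of 15 genes of mitochondrial content and biogenesis 1 fell, tomm40, the import channel of the outer membrane (log2 change -1.43, limma adjusted p = 0.0286), with a median of -0.04. None of these lists had a call at 20 µg/L against water.

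Transcripts of other origins moved with the 50 µg/L group too, where 3.82% of all genes were called higher. The lists were chosen with earlier results of these data known, so the counts below describe them and are not independent of these data. Of 9 genes supplied by the oocyte 8 rose at 50 µg/L against water, with btg4 (log2 change 4.20, limma adjusted p = 0.00589) and cldnd (3.15, limma adjusted p = 0.00589) the largest. Among the 8, buc passed the signal filter only through its 50 µg/L arrays, so its call is not independent of its rise. It read 30.9, 97.8 and 44.5 in water, 50.7, 68 and 85.7 at 20 µg/L and 397, 380 and 203 at 50 µg/L. Summed signals here take all genes of a list on the array, those under the filter included. The sum of the oocyte list ran between 5676 and 8927 in water, between 5603 and 7289 at 20 µg/L and between 19110 and 37297 at 50 µg/L, so that the 50 µg/L arrays stood apart. Of 12 genes of the gastrula blastoderm 3 rose, mixl1 (log2 change 2.63, limma adjusted p = 0.00842), vent (2.37, limma adjusted p = 0.0268) and gsc, and the summed signal lay between 40748 and 45465 in water, between 46830 and 55273 at 20 µg/L and between 64387 and 77490 at 50 µg/L. These sums came mostly from genes that were not called. Of the 77490 in 50 µg/L replicate 1, mixl1, vent and gsc held 1326, 1362 and 3341, and vox, which was not called, held 24120.5. Of 4 yolk syncytial layer genes above the filter 1 rose, hnf4a (log2 change 1.62, limma adjusted p = 0.0382). The sums of that list lay between 5064 and 11580 in water, between 9272 and 11586 at 20 µg/L and between 12517 and 15587 at 50 µg/L. Most of these sums came from sox32 (8220 of 11580 in water replicate 2), which is in the blastoderm list as well. None of 6 germ cell genes passed the test, with sums between 1462 and 2035 in water, between 1580 and 1812 at 20 µg/L and between 2081 and 2856 at 50 µg/L. None of 6 enveloping layer genes did either, and their sums overlapped, between 87799 and 112119 in water, between 85465 and 105737 at 20 µg/L and between 89770 and 99887 at 50 µg/L. The later segmentation markers myog and egr2b were not above the tag controls on any array, none of the 2 genes of that list above the filter passed the test, and its sums lay between 532 and 1110 in water, between 416 and 632 at 20 µg/L and between 405 and 576 at 50 µg/L. The part of embryo stage and cell makeup in the complex I values was not tested.

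The 4 calls lie close to the threshold, and leaving out 1 array was mostly enough to lose them, whereas the direction of the set stayed. The log2 changes of the 4 genes stayed between -1.54 and -0.80 without any 1 of the 9 arrays. The 20 µg/L arrays enter this comparison only through the estimate of the spread, and calls were lost without them too. No complex I gene was called at 50 µg/L against water when any 50 µg/L array, 20 µg/L replicate 1, 20 µg/L replicate 2 or water replicate 3 was left out. Calls over all genes moved likewise: 0% of all genes were called lower without 50 µg/L replicate 1, 0.164% without 50 µg/L replicate 2, 0.147% without 50 µg/L replicate 3, 0.409% and 0.491% without 20 µg/L replicates 1 and 2, and 0.737% without water replicate 3. Without water replicate 1 the call of ndufa2 was left, without 20 µg/L replicate 3 those of ndufa2, ndufa12 and ndufa5, and without water replicate 2 there were 5 calls, with 0.311%, 1.44% and 2.54% of all genes called lower in that order. Within the 6 arrays of the common export format none was called (0.802% of all genes lower) and the median was -0.55. With the format as a block the same 4 genes were called (1.34% of all genes lower). The adjusted p of the 4 genes without 50 µg/L replicate 1 lay between 0.185 and 0.194, and without any 1 of the 9 arrays the median of the 38 genes stayed between -0.58 and -0.40. With weights for array quality 12 genes were called lower, where 7.22% of all genes were.

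**Figure D5:**
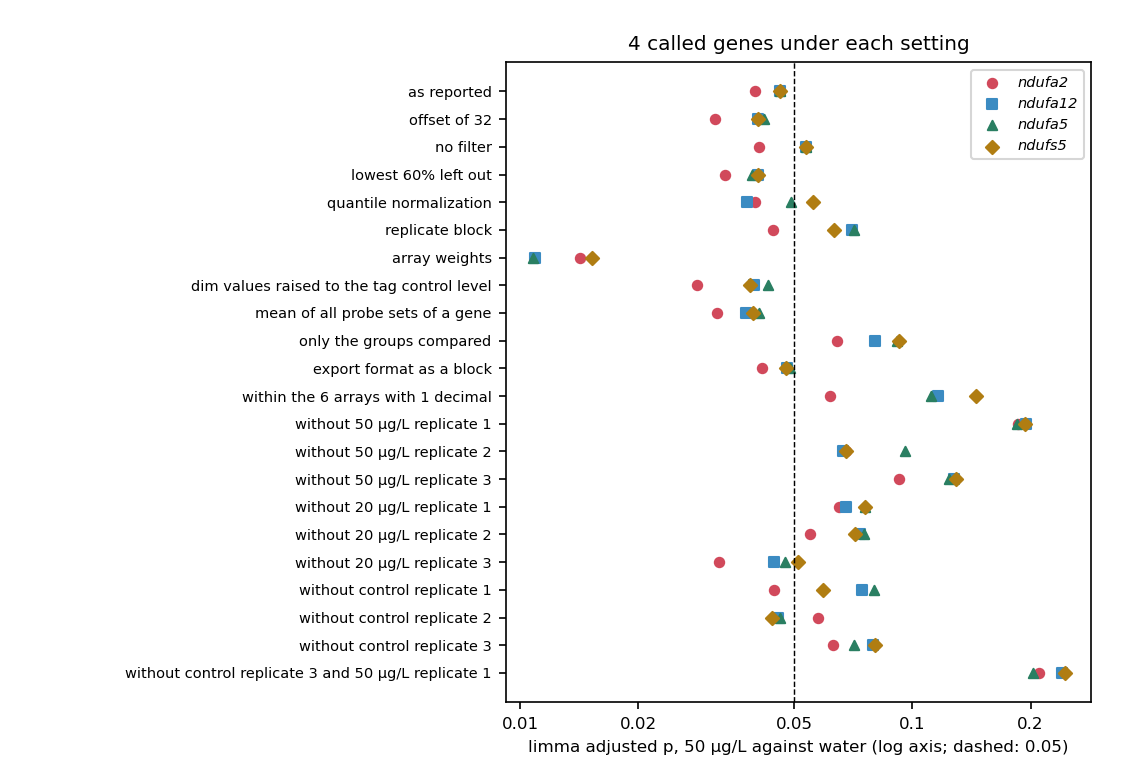
Limma adjusted p (x axis, log scale) of ndufa2, ndufa12, ndufa5 and ndufs5 at 50 µg/L against water under each setting (y axis); the dashed line is 0.05. With the settings as reported all 4 lie left of the line by a small margin, and without 50 µg/L replicate 1 they lie between 0.185 and 0.194.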

How the data were processed

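Signals for 15617 probe sets on 9 arrays were taken as the authors deposited them: array intensities on a linear scale, made with GCOS and MAS5 per the submitters' processing notes (their versions are not given). Each array's mean, trimmed by 2% at both ends, was between 500.1 and 500.2. Probe sets were named from the platform annotation (10802 with 1 gene, 135 with several, 4680 with none), and symbols were updated by gene identifier. Of the non-control probe sets the 40% with the lowest mean were left out (9301 kept), and log2(signal + 1) was fitted over the 9 arrays (R 4.3.3, limma 3.58.1; trended eBayes, Benjamini-Hochberg, threshold 0.05). Fold changes are on that scale, which understates changes of dim genes. The dim limit is the 95th percentile of 17 tag control probe sets. The code was tested on simulated data.

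The members, lists and alternatives were chosen with earlier results of these data known. Every member is accounted for. Values in every array are given for called genes, the 5 largest changes in each direction at 50 µg/L, core subunits, assembly factors and ndufa4 genes; from each comparison list the largest 2 called changes are named. A gene not above the dim limit on any water array has a lower bound as its fold: its mean at 50 µg/L against, per water array, the higher of its signal and the dim limit, averaged as log2. The alternatives were the offset, the filter, quantile normalization, the replicate number or the export format as a block, array weights, dim values raised, means over probe sets, only the groups compared, and leaving out arrays. Leaving out water replicate 3 and 50 µg/L replicate 1 together was added after the data were seen.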

Additional observations from a re-analysis of the deposited data

How the results depend on the processing

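The number of complex I genes called lower at 50 µg/L against water, 4 as reported, was 1 with no filter on dim probe sets. With array weights it was 12. It was 0 with only the groups compared and within the 6 arrays with 1 decimal. Without water replicate 3 and 50 µg/L replicate 1 together it was 0 as well, and leaving out 1 array it ran between 0 and 5. It was 6 with an offset of 32, with the lowest 60% left out and with dim values raised (1.46%, 1.89% and 1.51% of all genes). Called beside the 4 there were ndufa6 and ndufv2. Means over probe sets gave 5 (1.6% of all genes), with ndufa6 added. Quantile normalization gave 4 (1.28% of all genes), with ndufa6 in place of ndufs5. Under the replicate block 1 gene, ndufa2, was called, where 0.573% of all genes were called lower. As reported that share was 1.16%. It was 0.639% with no filter, 0.344% with only the groups compared and 0.802% within the 6 arrays. Without water replicate 3 and 50 µg/L replicate 1 together it was 0%. Deviations of same-numbered arrays from their group means correlated between -0.16 and 0.23 (1 of 9 over 0.1), and those of other pairs between -0.31 and 0.22. For 1 array of 9 the 2 closest arrays of other groups were those of its own number. The numbers were not taken as pairs in the main fit. At 50 against 20 µg/L, 0 as reported, 8 genes were called with array weights (7 lower and ndufa9a higher) and 2 within the 6 arrays (ndufa8 lower and ndufaf2 higher). The share of all genes called in that comparison is not given for these settings, so these calls are not counted or read as a result about complex I. Array weights raised the calls over all genes as well, to 7.22% lower and 12.7% higher at 50 µg/L against water. In both comparisons with water no complex I gene was called higher, and at 20 µg/L none was called lower, under any alternative. Quantile normalization moved the median of all genes at 50 µg/L to -0.03, and that of the complex I genes, relative to all genes, lay between -0.67 and -0.45 over all alternatives. None of the 4 called changes turned its sign under an alternative. Of values that had not passed the test, some did, and those given here are examples. At 20 µg/L ndufa12 was 0.056 with array weights and 0.12 within the 6 arrays, where ndufv2, ndufa6, ndufa9a and ndufs1 also lay above 0 (0.03 to 0.16). At 50 µg/L ndufaf1 was 0.058 as a mean over probe sets and ndufaf6 was 0.17 within the 6 arrays. There ndufaf2 was -0.033 without water replicate 3 and 50 µg/L replicate 1 together. Leaving out 1 array, the log2 change at 50 µg/L ran between -0.076 and 0.34 for ndufs1, between -0.017 and 0.49 for ndufaf5 and between -0.14 and 0.12 for ndufaf6. Over all members and comparisons, 89 of 2388 values under alternatives, these included, had the opposite sign. At 50 µg/L against water 18 of 796 did. The causes were not tested. With 3 arrays a group, the number of arrays limits what can be called, and signals near the tag controls have no order.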
